A study of Mus musculus with 7 samples.

Results

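The AP-1 transcription factors were examined here in islets of NOD_Idd22 and NOD-Rag1 mice. The members were 8 genes chosen by symbol, namely Junb, Jun, Jund, Fos, Fosb, Fosl1, Fosl2 and Batf, among 25793 genes with a symbol on the array. Each of the 8 was read by 1 probe set, so every member was measured. The strain labelled NOD_Idd22 is NOD.ALRc8(D8Mit293-D8Mit137), an NOD mouse with intact Rag1 whose Chr 8 carries a segment from the ALR strain between these markers. It was set against NOD-Rag1, the NOD.129S7(B6)-Rag1tm1Mom/J strain, in which disruption of Rag1 removes mature T and B cells and with them insulitis, the infiltration of islets by immune cells. The NOD_Idd22 group held 4 pools and the NOD-Rag1 group 3 pools. Islets of 2 mice made up each pool, about 200 by the series' description and up to 250 by the methods. The mice were 10 to 12 weeks old, and the labels name no treatment. The strains therefore differed both in the Chr 8 segment and in Rag1, and these contributions cannot be told apart. Values are log2 RMA expression values, and log2 fold changes are NOD_Idd22 minus NOD-Rag1.

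AP-1 is a family of dimers of leucine zipper proteins. Jun proteins pair with one another or with Fos proteins, whereas Fos proteins need a Jun partner, and the dimers bind TGACTCA and related DNA sequences. Fos, Fosb, Jun and Junb are immediate early genes, transcribed within minutes of growth factors, cytokines, depolarization or handling of cells, and their transcripts decay quickly. Jund is more steadily expressed. Islets hold AP-1 proteins in endocrine cells as well as in blood vessels, stroma and immune cells, and RNA of whole islets sums over all of them. For such a sum, fewer cells of a type and less RNA per cell cannot be told apart.

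The sequences before the start sites are shown for the 4 members whose values varied most between pools, as reference sequence only, since ALR and NOD alleles were not read. RefSeq (GRCm38.p6) gave 7 of the 8 members, all but Fosl1. The runs are the 250 bases before the start, 5′ to 3′ on the strand of the gene, at chr8:84978749-84978998 for Junb, chr4:95052223-95052472 for Jun and chr7:19310046-19310295 for Fosb on the minus strand, and at chr12:85473640-85473889 for Fos on the plus strand. Capitals mark TGACG on the strand shown, the opening bases of the cyclic AMP response element TGACGTCA, and in Jun the related TGACATCA.
Junb: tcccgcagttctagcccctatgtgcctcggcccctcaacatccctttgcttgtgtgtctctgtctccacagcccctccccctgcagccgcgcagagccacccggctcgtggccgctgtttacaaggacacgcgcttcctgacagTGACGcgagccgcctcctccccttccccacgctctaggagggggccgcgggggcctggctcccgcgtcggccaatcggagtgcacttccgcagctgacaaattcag
Jun: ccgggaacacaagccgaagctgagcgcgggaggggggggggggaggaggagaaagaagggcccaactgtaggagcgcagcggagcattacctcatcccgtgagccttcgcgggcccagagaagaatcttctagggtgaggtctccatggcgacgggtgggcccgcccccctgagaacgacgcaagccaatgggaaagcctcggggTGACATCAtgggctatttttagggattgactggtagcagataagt
Fos: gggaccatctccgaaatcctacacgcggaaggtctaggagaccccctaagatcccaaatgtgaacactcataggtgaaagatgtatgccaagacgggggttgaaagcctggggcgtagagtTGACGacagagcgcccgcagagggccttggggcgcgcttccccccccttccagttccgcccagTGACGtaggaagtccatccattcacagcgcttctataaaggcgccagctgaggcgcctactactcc
Fosb: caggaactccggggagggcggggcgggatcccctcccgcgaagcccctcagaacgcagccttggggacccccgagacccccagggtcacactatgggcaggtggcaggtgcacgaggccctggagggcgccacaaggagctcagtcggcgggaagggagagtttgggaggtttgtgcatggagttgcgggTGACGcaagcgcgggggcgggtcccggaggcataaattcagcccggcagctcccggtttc

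On both strands of these windows, none of the 7 members had the AP-1 site TGACTCA, the full response element TGACGTCA or a CArG box, the site of serum response factor. These were present in 4.46%, 1.55% and 1.47% of 32851 promoters of 27025 genes. Both further patterns were searched after that result was seen. TGACG, which TGACGTCA contains, lay 106 bases before the start in Junb, 129 and 66 bases before it in Fos, 60 in Fosb and 98 in Batf, and occurred in 17.8% of all promoters. TGACNTCA, which TGACGTCA also matches, was found in Jun alone, as TGACATCA 45 bases before the start, and in 7.49% of all promoters. Elements farther from the start were not searched.

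The pools correlated over probe sets at 0.976 to 0.986 within NOD_Idd22, 0.984 to 0.993 within NOD-Rag1 and 0.965 to 0.981 between the strains. Gcg, the glucagon gene, was 12.66 to 12.95 and Iapp, the islet amyloid polypeptide gene of beta cells, was 11.72 to 11.91 in all 7 pools. The lower quartile of the values split the arrays into 2 sets. It was 2.64 to 2.68 in NOD_Idd22 replicates 2, 3 and 4 and NOD-Rag1 replicate 1, and 2.49 to 2.50 in NOD_Idd22 replicate 1 and NOD-Rag1 replicates 2 and 3. NOD-Rag1 replicate 1 also differed in Xist, at 2.56 against 9.69 to 10.28 in the other 6 pools, and in the Y-linked Ddx3y, at 6.25 against 1.99 to 2.08, as in a male pool, while the labels give no sex. The Rag1 probe set read 3.25 to 3.87 in NOD_Idd22 and 3.63 to 4.21 in NOD-Rag1, which does not test the disruption of the gene. Over all genes the median log2 fold change was 0.01, and 54 probe sets passed an adjusted p of 0.05 by limma.

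Junb was the single member whose NOD_Idd22 pools all lay above the NOD-Rag1 pools. JunB is a Jun protein that can restrain c-Jun in some settings and acts in T helper cells, vessels and bone in mice. Its probe set 17511259 (GRCm38, Chr 8 from 84976909 to 84978748) lies inside the ALR segment. Junb was 7.11, 7.23, 8.16 and 8.30 in NOD_Idd22 replicates 1 to 4, and 6.94, 6.49 and 6.39 in NOD-Rag1 replicates 1 to 3. The NOD_Idd22 pools came as a low and a high pair, the lowest of them 0.17 above the highest NOD-Rag1 pool. Means were 7.70 ± 0.61 (SD, n = 4 pools) in NOD_Idd22 and 6.61 ± 0.30 (SD, n = 3 pools) in NOD-Rag1, a log2 fold change of 1.09 (SE 0.33, 95% interval 0.31 to 1.88) or 2.14-fold. This did not pass the test over all probe sets (limma p = 0.0128, adjusted p = 0.390), and the exact two-sided permutation p was 0.0571, the smallest that 35 splits can give. Non-overlap with NOD_Idd22 above was seen in 1 of 8 members, against 4.55% of all genes.

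Junb met the threshold of the study's methods, a log2 difference of more than 0.5 in size with p below 0.05 before adjustment, as 2 of 8 members did with higher values (Junb and Fosb), against 3.94% of all genes. None of the 8 met it with lower values, against 2.18% of genes. By adjusted p of limma, 0 of 8 members passed, against 0.151% of genes, and 2 of 8 had an unadjusted p under 0.05, against 10.4% of genes. The methods' t-test gave 0 after adjustment. Without NOD-Rag1 replicate 3, Junb gave 0.98 at an unadjusted limma p of 0.0504. Within the array sets the difference was 0.95 in the set with the higher quartile and 0.67 in the other. In the first set NOD-Rag1 replicate 1, which read as a male pool in Xist and Ddx3y, was the only pool of its strain. In the second set NOD_Idd22 replicate 1 was the only pool of its strain.

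Jun, the gene of c-Jun, the main activating Jun protein, did not separate the strains. Its probe set 17427312 (Chr 4 from 95049034 to 95052222) read 8.30, 8.72, 10.23 and 10.65 in NOD_Idd22, and 9.70, 8.60 and 8.16 in NOD-Rag1. NOD_Idd22 replicates 3 and 4 and NOD-Rag1 replicate 1 were high, and the groups overlapped. Means were 9.48 ± 1.14 (SD, n = 4 pools) in NOD_Idd22 and 8.82 ± 0.80 (SD, n = 3 pools) in NOD-Rag1. The log2 fold change of 0.65 was about as large as its SE of 0.65 (95% interval -0.87 to 2.18, adjusted p = 0.752 from limma, exact permutation p = 0.343). Within the array sets the difference was 0.16 in the set with the higher quartile and -0.08 in the other.

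Jund, whose protein is abundant in resting cells, was the other member inside the ALR segment (probe set 17502001, Chr 8 from 70697739 to 70700616). It read 8.99, 8.24, 9.28 and 8.92 in NOD_Idd22, and 9.31, 9.13 and 8.93 in NOD-Rag1. NOD_Idd22 replicate 2 was the low one, and the other pools of both strains overlapped. The log2 fold change was -0.27 (SE 0.24, 95% interval -0.83 to 0.29, adjusted p = 0.729 from limma, exact permutation p = 0.400). The other Jun gene of Chr 8 thus had a difference of the opposite sign to Junb, with an interval that includes zero.

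**Figure D1:**
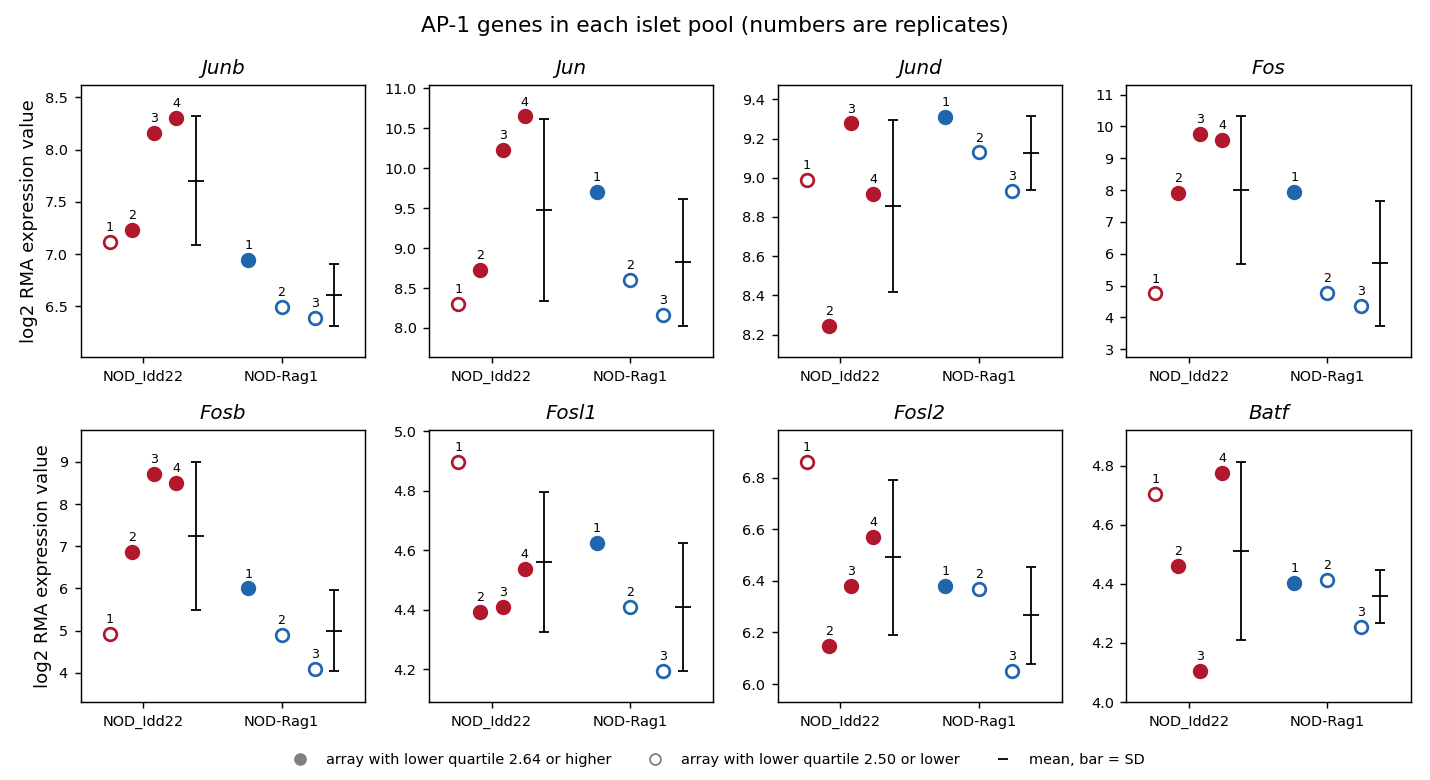
Log2 RMA value of each AP-1 gene (y axes, 1 scale per gene) in each islet pool, NOD_Idd22 left of NOD-Rag1, with replicate numbers. Filled points are arrays of the higher lower quartile and open points those of the lower one, and bars show mean and SD. Junb pools do not overlap between strains, while Fos, Fosb and Jun separate filled from open points.

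Fos, the gene of c-Fos, had the widest spread between pools of one strain. Its probe set 17277387 (Chr 12 from 85473890 to 85477273) read 4.75, 7.91, 9.76 and 9.57 in NOD_Idd22, and 7.95, 4.77 and 4.37 in NOD-Rag1. NOD_Idd22 replicate 1 stood with NOD-Rag1 replicates 2 and 3, and NOD-Rag1 replicate 1 stood with NOD_Idd22 replicate 2. Pools of 1 strain thus differed by up to 5.01 (32.2-fold) in NOD_Idd22 and 3.58 (11.96-fold) in NOD-Rag1, ranges wider than those of 99.99% and 99.95% of genes. Means were 8.0 ± 2.32 (SD, n = 4 pools) in NOD_Idd22 and 5.69 ± 1.96 (SD, n = 3 pools) in NOD-Rag1. The log2 fold change of 2.30 had an SE of 1.39 and a 95% interval of -0.96 to 5.57 (adjusted p = 0.620 from limma, exact permutation p = 0.286).

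Fosb, whose protein also occurs as a stable short form in brain, followed the same pools. Its probe set 17487211 (Chr 7 from 19302696 to 19310045) read 4.91, 6.87, 8.72 and 8.50 in NOD_Idd22, and 6.0, 4.90 and 4.09 in NOD-Rag1. Only NOD_Idd22 replicate 1 lay within the range of NOD-Rag1. Means were 7.25 ± 1.76 (SD, n = 4 pools) in NOD_Idd22 and 5.0 ± 0.96 (SD, n = 3 pools) in NOD-Rag1, a log2 fold change of 2.25 (SE 0.95, 95% interval 0.01 to 4.49) or 4.76-fold. It met the methods' threshold (limma p = 0.0489) but not the test over all probe sets (adjusted p = 0.525 from limma, exact permutation p = 0.114). The threshold was no longer met with the methods' t-test, with a block for the array sets, with the replicate block, or without any 1 of NOD_Idd22 replicates 2, 3 and 4 and NOD-Rag1 replicates 2 and 3. Within the array sets the difference was 2.03 in the set with the higher quartile and 0.42 in the other.

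Fosl1 and Fosl2 encode Fra-1 and Fra-2, Fos proteins that lack the strong activation domain of c-Fos, and both had narrower ranges than Fos and Fosb. Fosl1 (probe set 17356427, Chr 19 from 5447698 to 5455945) read 4.90, 4.39, 4.41 and 4.54 in NOD_Idd22, and 4.62, 4.41 and 4.19 in NOD-Rag1. Its log2 fold change was 0.15 (95% interval -0.23 to 0.53, adjusted p = 0.768 from limma). Fosl2 (probe set 17436237, Chr 5 from 32136472 to 32157840) read 6.86, 6.15, 6.38 and 6.57 in NOD_Idd22, and 6.38, 6.37 and 6.05 in NOD-Rag1. Its log2 fold change was 0.22 (95% interval -0.20 to 0.65, adjusted p = 0.702 from limma). Over the NOD_Idd22 pools Fosl1 ranged by 0.51 and Fosl2 by 0.71, against a median of 0.44 over all genes. For both genes the highest value was that of NOD_Idd22 replicate 1, the pool in which Fos was lowest among NOD_Idd22, and the strains overlapped.

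Batf encodes a small partner of Jun proteins that acts with IRF4 and IRF8 in lymphocytes and dendritic cells. Its probe set 17277404 lies on Chr 12 from 85686669 to 85709087, near Fos. It read 4.70, 4.46, 4.10 and 4.78 in NOD_Idd22, and 4.40, 4.41 and 4.25 in NOD-Rag1, with NOD_Idd22 on both sides of NOD-Rag1. The log2 fold change was 0.15 (95% interval -0.24 to 0.55, adjusted p = 0.774 from limma, exact permutation p = 0.457).

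**Figure D2:**
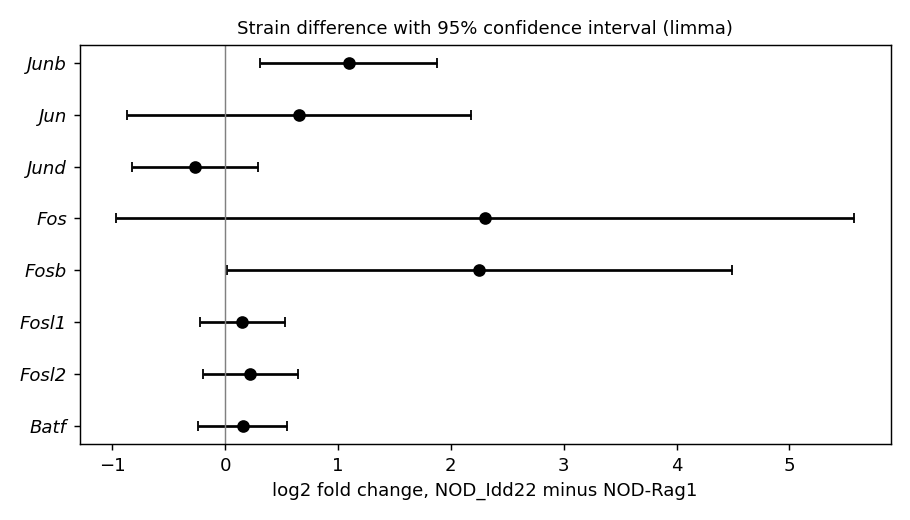
Log2 fold change, NOD_Idd22 minus NOD-Rag1, of the 8 AP-1 genes (x axis) with the 95% interval of limma as bars. The intervals of Junb and Fosb lie above zero before adjustment over all probe sets, and those of Fos and Jun are wide.

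Values of Fos, Fosb and Jun separated by array set without overlap, while the strains overlapped in each of them. In Fos the 4 pools with the higher lower quartile (3 of NOD_Idd22 and 1 of NOD-Rag1) averaged 8.80 and the other 3 averaged 4.63, a difference of 4.17. The corresponding differences were 2.89 for Fosb and 1.47 for Jun, and in these 3 genes every pool of the first set lay above every pool of the second. The same was true of 9.74% of all genes. Junb differed by 0.995 between the array sets, with overlap, while Jund, Fosl1, Fosl2 and Batf differed by -0.08, -0.01, -0.06 and -0.02. Within the array sets, the strain difference of Fos was 1.13 in the set with the higher quartile and 0.18 in the other, against 2.30 over all pools. For Fosb these were 2.03 and 0.42, against 2.25, and for Jun 0.16 and -0.08, against 0.65. A fit with the array sets as a block gave 0.69 for Fos, 1.27 for Fosb, 0.05 for Jun and 0.82 for Junb (adjusted p = 0.776, 0.625, 0.989 and 0.465 from limma). What distinguishes the arrays of the 2 sets is not stated in the labels, and its part in these values was not tested.

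Among 12892 genes at or above the median brightness, likeness to a member was described by Pearson's r over the 7 pools, which share strain and array set. The 5 genes most like Junb were Klf2, a zinc finger factor of endothelium and T cells (r = 0.990), Zfp36, whose product destabilizes inflammatory transcripts (0.982), Amigo3 (0.981), and the 5S ribosomal RNA genes n-R5s71 (0.980) and n-R5s156 (0.980). Klf2, also inside the ALR segment, read 5.13, 5.60, 6.29 and 6.44 in NOD_Idd22 and 5.08, 4.68 and 4.60 in NOD-Rag1, placing the 7 pools in the same order as Junb. Fosb ranked 30 (r = 0.948), Fos 187 (0.872) and Jun 262 (0.851) in likeness to Junb, while Jund was at 0.02. The 5 genes most like Fos were Gm10220 (r = 0.995), Cd209a (0.979), the interferon gene Ifne (0.976), the histone pseudogene H2afb2-ps (0.975) and Gm7138 (0.974). Their log2 fold changes were 0.29 to 0.41, against 2.30 for Fos. The probe set annotated as Cd209a spans only Chr 8 from 3803069 to 3803361 and read 9.13 to 9.90 in the 7 pools. Which transcript it reads was not tested. In all 5, as in Fos, the pools separated by array set without overlap, which was true of 9.74% of all genes. Fosb ranked 19 (r = 0.963) and Jun 108 (0.913) in likeness to Fos.

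The 10 measured genes nearest to Junb, 5 on each side, lie in the ALR segment with it. None passed the methods' threshold, which 3.94% of all genes met as higher and 2.18% as lower. Of the 10, 2 had a positive log2 fold change, against 51.7% of all genes. Their range was -0.49 to 0.15 with a median of -0.11, against 1.09 for Junb. In 2 of the 10 the strains did not overlap. Hook2, whose protein links cargo to microtubules, was 6.19, 5.85, 6.21 and 5.71 in NOD_Idd22 and 6.36, 6.75 and 6.32 in NOD-Rag1. All its NOD_Idd22 pools were lower (log2 fold change -0.49, adjusted p = 0.465 from limma). Best2, outside the naming rule, was higher in NOD_Idd22, at 3.16 to 3.26 against 2.93 to 3.15 in NOD-Rag1 (log2 fold change 0.15). Non-overlap with NOD_Idd22 above was seen in 4.55% of all genes, and the share below was not counted. Mast1, a kinase gene, and 2310036O22Rik had log2 fold changes of -0.28 and -0.26. Around Jund, beside the same shares of all genes, 3 of 10 neighbours met the methods' threshold, with a median of -0.21 over the 10. These were Lrrc25, at 0.64, Lsm4, an RNA-binding protein of the spliceosome, at -0.62, and Pgpep1, outside the naming rule, at -0.56 (adjusted p = 0.243, 0.207 and 0.353 from limma). Gm11175, whose span lies within that of Jund, read 6.20, 7.38, 7.77 and 7.91 in NOD_Idd22 and 7.94, 5.90 and 6.07 in NOD-Rag1. Its pools followed the array sets (log2 fold change 0.68), as those of Jund did not. Whether probes of the 2 overlapping features read the same transcript was not tested.

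**Figure D3:**
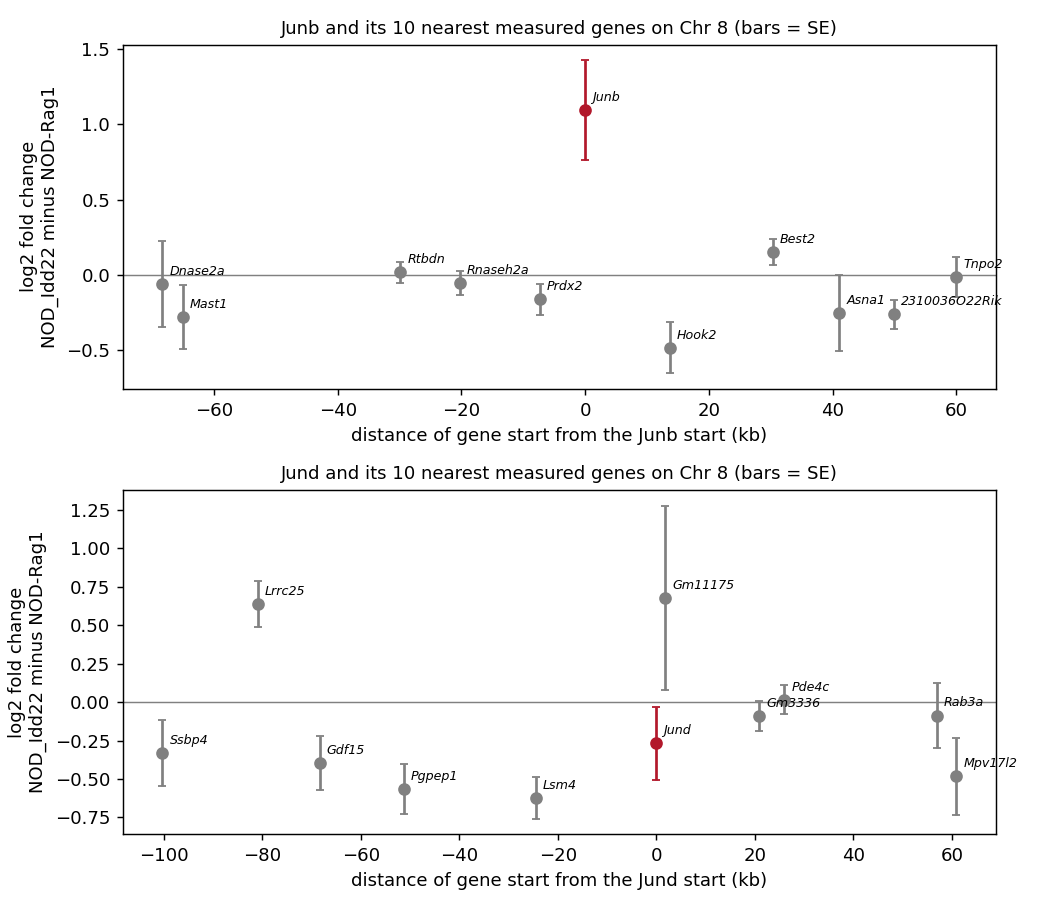
Log2 fold change, NOD_Idd22 minus NOD-Rag1 (y axis, bars are SE), of Junb (upper panel) and Jund (lower panel) in red and their 10 nearest measured genes in grey, by distance of gene starts in kb (x axis). The Junb neighbours lie between -0.49 and 0.15, below Junb at 1.09.

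Other genes of the pathway were read from lists, as counts with no test of a list. Of all genes, 0.151% passed an adjusted p of 0.05 by limma and 10.4% had an unadjusted limma p under 0.05. The methods' threshold was met by 3.94% of all genes as higher and 2.18% as lower, and 51.7% had a positive log2 fold change. Of 26 leucine zipper partners and relatives, 0 passed an adjusted p of 0.05 by limma and 6 an unadjusted one, while 1 met the methods' threshold as higher and 2 as lower, with a median log2 fold change of -0.14. The highest were Maf, a large Maf protein of T helper cells and macrophages (0.77), and Bach2, a repressor of lymphocytes (0.46). The lowest were both genes of the stress response to amino acid lack and misfolded protein, Ddit3, encoding CHOP (-1.45), and Atf5 (-0.99). Ddit3 read 8.55, 6.50, 7.06 and 6.88 in NOD_Idd22, and 8.15, 9.40 and 8.56 in NOD-Rag1. NOD_Idd22 replicate 1, low in Fos, was thus the one NOD_Idd22 pool with Ddit3 at the level of NOD-Rag1.

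The next list held 26 genes of MAP kinases, their activators and ribosomal S6 kinases, which phosphorylate AP-1 proteins or induce their genes. With a median of -0.04, 0 passed the adjusted p of limma and 2 an unadjusted p of 0.05, against 10.4% of all genes. Both met the methods' threshold as higher, against 3.94% of all genes. These were Mapk11, the p38 beta kinase (0.87), and Rps6ka1, a ribosomal S6 kinase (0.60). The lowest were Map2k4, an activator of JNK (-0.34), and Map2k2, an activator of ERK (-0.32). Of 14 phosphatases and feedback inhibitors of MAP kinase signalling, 0 passed the adjusted p of limma and 5 an unadjusted p of 0.05, against 10.4% of all genes. At the methods' threshold 3 were higher and 1 lower, against 3.94% and 2.18% of all genes, with a median of 0.04. Dusp6, an ERK phosphatase (0.87), and Dusp2 (0.71) had the highest log2 fold changes, and Dusp8 (-1.06) and Dusp4 (-0.85) the lowest. Dusp8 read 6.57, 5.34, 5.63 and 5.78 in NOD_Idd22 and 6.73, 7.08 and 6.84 in NOD-Rag1, without overlap. Dusp1, outside the naming rule and named after its values were seen, read 7.65, 8.24, 9.53 and 9.79 in NOD_Idd22 and 9.19, 7.65 and 7.59 in NOD-Rag1, following the array sets as Fos did.

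Of 12 measured factors listed as regulators of Fos and Jun genes, 0 passed the adjusted p of limma and 2 an unadjusted p of 0.05, against 10.4% of all genes. Both met the methods' threshold as higher, against 3.94% of all genes, and the median of the 12 was -0.06. These were Mef2c, a MADS box factor (0.94), and Elk3, an Ets factor of vessels that partners serum response factor (0.73). The lowest were Crtc2, a CREB coactivator (-0.42), and Stat3 (-0.28). Of 15 genes for turnover and cofactors of Jun and Fos proteins, 0 passed the adjusted p of limma and 4 an unadjusted p of 0.05, against 10.4% of all genes. Of these 15, 3 met the methods' threshold as higher, against 3.94% of all genes, and the median was -0.01. The highest were Irf8 (1.46) and Irf4 (1.41), the partners of BATF named above, and the lowest were the coactivator gene Ncoa1 (-0.20) and the ubiquitin ligase gene Nedd4l (-0.19). Irf4 read 5.32, 4.50, 3.82 and 4.67 in NOD_Idd22 and 3.19, 3.12 and 3.18 in NOD-Rag1, without overlap (adjusted p = 0.212 from limma).

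Of 31 textbook AP-1 targets, 0 passed the adjusted p of limma and 7 an unadjusted p of 0.05, against 0.151% and 10.4% of all genes. At the methods' threshold 3 were higher and 3 lower, against 3.94% and 2.18% of all genes, with a median of 0.05. Cd44, an adhesion receptor, read 7.98, 7.18, 7.45 and 7.37 in NOD_Idd22 and 6.16, 6.41 and 6.49 in NOD-Rag1 (log2 fold change 1.14, adjusted p = 0.112 from limma), and the cytokine gene Tnf had a log2 fold change of 0.91. The lowest were the macrophage elastase gene Mmp12 (-1.47) and the EGF receptor ligand gene Areg (-1.30). The pool with the highest value was mostly not that of Fos. The highest of the 7 values was that of NOD_Idd22 replicate 1 in 22 of 31 targets (71.0%), against 9.93% of all genes. In that pool Fos, Fosb, Jun and Junb were lowest of NOD_Idd22, while Fosl1 (4.90) and Fosl2 (6.86) were highest of the 7 pools. Its mean over the 31 targets was 6.19, against 4.67 to 4.93 in NOD_Idd22 replicates 2 to 4 and 5.05 to 5.19 in NOD-Rag1. Timp1, an inhibitor of matrix proteases named after its values were seen, read 8.53, 4.47, 3.99 and 4.21 in NOD_Idd22 and 5.29, 5.64 and 5.57 in NOD-Rag1. The 8 macrophage and dendritic cell markers had a mean of 7.66 in NOD_Idd22 replicate 1, against 6.11 to 6.91 in the other NOD_Idd22 pools and 5.61 to 6.41 in NOD-Rag1. The 6 duct markers, of which Spp1 is also among the targets, had a mean of 6.80 in NOD_Idd22 replicate 1, against 5.51 to 5.53 in the other NOD_Idd22 pools and 5.68 to 6.20 in NOD-Rag1. Fibroblast markers were also highest in NOD_Idd22 replicate 1, at a mean of 8.01, and beta cell markers lowest, at 9.49. The part of these cells in the target values was not tested.

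Of 25 other immediate early genes, 0 passed the adjusted p of limma and 6 an unadjusted p of 0.05, with 4 meeting the methods' threshold as higher, 23 positive log2 fold changes and a median of 0.47. The shares over all genes were 10.4% at the unadjusted p, 3.94% at the methods' threshold as higher and 51.7% with a positive log2 fold change. The highest were Hspa1a, a heat shock protein gene (1.42), and Nr4a3, an orphan nuclear receptor gene (1.38), and the lowest were Myc (-0.57) and Ier3 (-0.27). Hspa1a read 5.02, 6.65, 7.87 and 7.85 in NOD_Idd22 and 4.79, 6.41 and 5.07 in NOD-Rag1, and the 2 strains overlapped. Of the 25, 6 (24%) had their highest value in NOD_Idd22 replicate 1, 8 (32%) in replicate 3 and 10 (40%) in replicate 4, against 9.93%, 16.1% and 18.8% of all genes. In 5 of 25 (Egr1, Egr4, Ier2, Zfp36 and Btg2, listed after their values were seen) the pools separated by array set, against 9.74% of all genes. Egr1 read 6.19, 6.74, 8.84 and 8.76 in NOD_Idd22 and 8.66, 5.92 and 5.70 in NOD-Rag1.

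**Figure D4:**
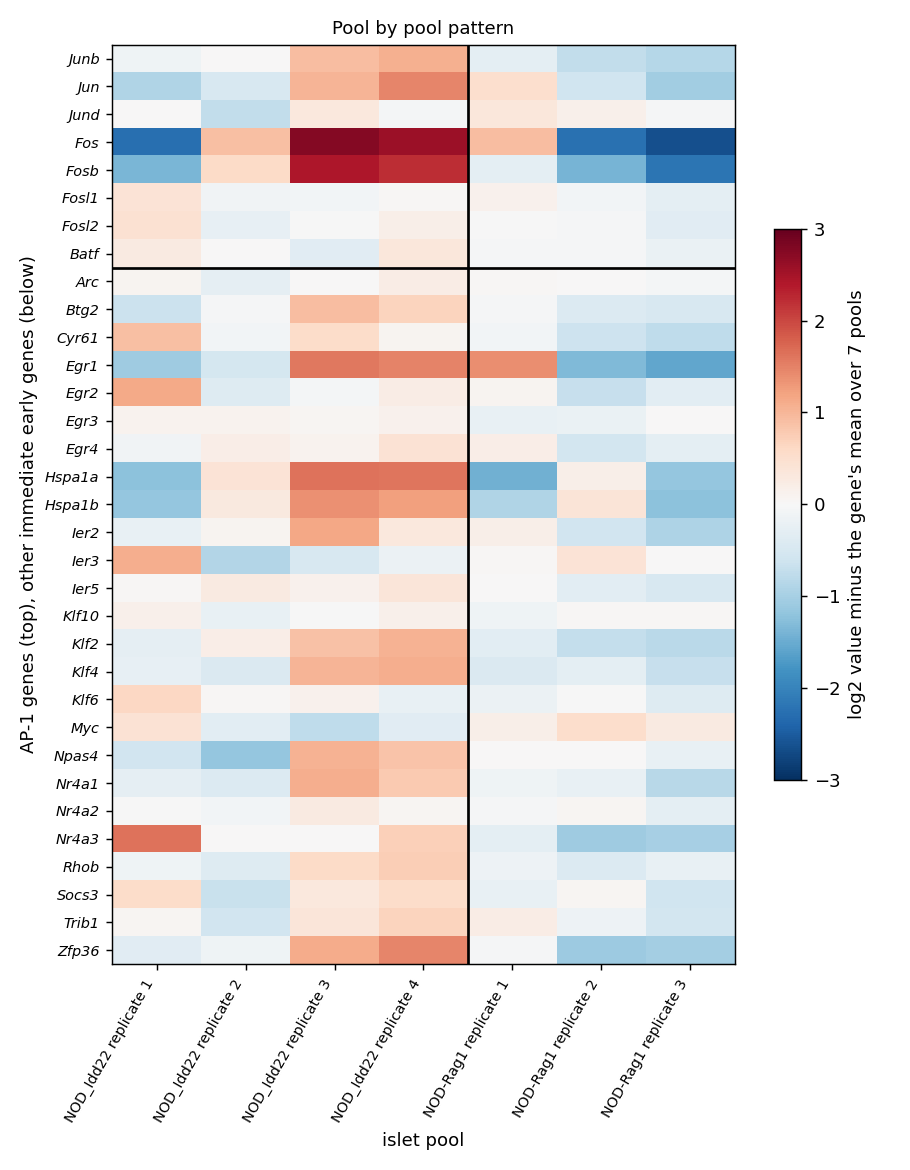
Log2 value minus the mean of the gene over 7 pools (colour) for the 8 AP-1 genes (top block) and 25 other immediate early genes (bottom block), with NOD_Idd22 pools left of NOD-Rag1 pools. NOD_Idd22 replicates 3 and 4 are red for Fos, Fosb, Jun and Junb, and NOD_Idd22 replicate 1 is blue for Fos, Fosb and Jun.

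Markers of other cells differed between the strains and are given beside the AP-1 values. The methods' threshold was met as higher by 3.94% of all genes and as lower by 2.18%. All 8 T cell markers and all 8 B and plasma cell markers met the methods' threshold as higher, with summed linear values of 349 to 914 in NOD_Idd22 against 108 to 162 in NOD-Rag1 for T cells, and 2637 to 7310 in NOD_Idd22 against 101 to 131 in NOD-Rag1 for B and plasma cells. Of 8 endothelial markers 7 met it, with sums of 1129 to 1949 in NOD_Idd22 and 338 to 811 in NOD-Rag1, and of 10 acinar markers 9 did, with sums of 7936 to 32925 in NOD_Idd22 and 380 to 5581 in NOD-Rag1. Like Junb, each of these 4 sums had no overlap between the strains. Over NOD_Idd22 replicates 1 to 4 the endothelial sums were 1129, 1722, 1949 and 1746, and Junb was 7.11, 7.23, 8.16 and 8.30. Replicate 2 was near replicate 4 in the sum and near replicate 1 in Junb. Over the same replicates the T cell sums were 847, 867, 349 and 914, and the B and plasma cell sums 6650, 6175, 2637 and 7310. Both sums were lowest in replicate 3, where Junb was 8.16, and highest in replicate 4, where Junb was 8.30. The acinar sum was lowest in replicate 1, where Junb was 7.11, and highest in replicate 2, where Junb was 7.23. Macrophage markers met the threshold in 4 of 8, with sums of 806 to 2893 in NOD_Idd22 and 724 to 1204 in NOD-Rag1, which overlapped, and fibroblast markers in 2 of 8. Beta cell markers met it in 0 of 10, and Cdh5, a junction protein of endothelium, averaged 8.63 ± 0.20 (SD, n = 4 pools) in NOD_Idd22 and 6.86 ± 0.85 (SD, n = 3 pools) in NOD-Rag1. The part of these cells in the Junb difference was not tested.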

How the data were processed

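RNA of islet pools was hybridised to Affymetrix Mouse Gene arrays. The deposited values are log2 expression values made by the authors with RMA (background correction, quantile normalization and summary of probes), the version not being given in the sources used here. The authors' deposited table of the comparison gave symbols and positions (GRCm38). It also holds the authors' own log2 fold changes and p-values, unadjusted and adjusted, made by a test not given in the sources used here, and these were not used. All columns of values were mapped to samples. The labels do not say that pools came from separate mice or days, so p-values measure the spread between these pools.

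The strain difference was fitted by limma 3.58.1 (R 4.3.3, lmFit with eBayes) over 34351 annotated probe sets, dim ones included, with Benjamini-Hochberg adjustment. A further 121 without annotation were dropped. Genes with more than 1 probe set were read at the brightest. The limma step was tested on simulated data. Single genes were also tested by exact two-sided permutation over 35 splits. Sequences were read in Python 3.11.15 and plots drawn with matplotlib 3.10.9. The number of arrays limits the precision.

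The members and lists were chosen with earlier results of these data known. Named were all members, the 2 highest and 2 lowest genes of each list, up to 3 neighbours each of Junb and Jund, the 5 genes most like Junb and Fos, and markers. Alternatives were median centring, quantile normalization, brighter probe sets, a trend and robust fit, array weights and an unpaired t-test. Further ones were blocks by replicate number and by array set, other thresholds and leaving out each pool. Linkage and alloxan data of the study were not analysed here.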

Additional observations from a re-analysis of the deposited data

How the results depend on the processing

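None of the 8 AP-1 genes changed direction or passed an adjusted p of 0.05 in any of 15 settings with a test per gene. Junb ranged from 0.82 (array sets as a block) to 1.34 (array weights), with adjusted p of 0.0756 to 0.975 by limma or the unpaired t-test. Jun ranged from 0.05 to 1.26 and Fos from 0.69 to 3.63. Median centring moved all differences by 0.12.

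The count of members past the methods' threshold was 2 in the report and 4 with array weights (Junb, Jun, Fos and Fosb). It was 1 with the unpaired t-test (Junb), 1 with a block for the array sets (Junb) and 0 with the replicate block. Leaving out each pool gave 0 to 3, with 0 without NOD-Rag1 replicate 3, 3 without NOD_Idd22 replicate 1 (Junb, Fos and Fosb), 2 without NOD-Rag1 replicate 1, and Junb alone without any of the other 4. Non-overlap held for 1 to 2 members when pools were left out. Fosb joined Junb without NOD_Idd22 replicate 1 or NOD-Rag1 replicate 1, and Batf did without NOD_Idd22 replicate 3. With fewer pools, non-overlap is easier to reach. The shares of all genes past the methods' threshold or without overlap were not counted under the alternative settings. The added members therefore cannot be set against them. The count of probe sets past the adjusted p was 54 in the report and 97 among the 17176 brighter probe sets. It was 233 with array weights, 1 with the unpaired t-test and 31 with a block for the array sets. When single pools were left out it was 10 to 258 (10 without NOD-Rag1 replicate 3, 258 without NOD_Idd22 replicate 3). The t-test called 1248 probe sets at the methods' threshold, where limma called 1920. The cause was not tested.

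With the replicate number as a block, 0 probe sets passed by limma. Junb was then 0.89 (adjusted p = 0.975 by limma). That fit used the 6 pools whose numbers occur in both strains. Deviations of same-numbered pools correlated at -0.38, -0.14 and -0.11, so the pools share a number and are not treated as pairs. Within the array sets, values that moved by more than the replicate SD were 0.42 for Fosb, 0.60 for Fosl1 and 0.65 for Fosl2 in the set with the lower quartile, and -0.18 for Fosl1 in the other. Using another probe set or the mean of probe sets was not possible, since each member has 1. With 3 and 4 pools, no exact permutation p can fall below 0.0571.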
